A study of Mus musculus with 12 samples.

Results

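Of 58 genes listed for the cell division cycle and DNA replication, 55 had a row in the deposited table of 10655 genes from mouse aortic endothelial cells (MAECs), and all 55 are described here. The rows were picked by symbol from a list that was drawn up with earlier results of these data known. Pole, Ccne1 and Bub1 are not analysed here. RNA was sequenced by SMART-seq, a full-length RNA protocol, in 12 libraries of 4 groups with 3 replicates each. CD_CD held cells from CD offspring of CD mothers, WD_CD from CD offspring of WD mothers, CD_WD from WD offspring of CD mothers and WD_WD from WD offspring of WD mothers. The diets are written as the titles abbreviate them, and the order mother then offspring was taken from how the series text names its groups. WD offspring received WD a further time, for 4 weeks. Neither a genotype, sex, age, sorting step nor batch is named in the labels, and nothing says whether replicates were separate animals. The p-values therefore measure the spread between these libraries, which may be technical.

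A dividing cell first licenses replication origins by loading the Mcm helicase onto DNA, then copies its genome behind the sliding clamp Pcna in S phase, and then condenses and separates its chromosomes in mitosis under the kinase Cdk1 with its B-type cyclins. Entry is set in G1, where D-type cyclins with Cdk4 or Cdk6 phosphorylate the retinoblastoma protein Rb1 and so free E2F transcription factors, while inhibitors such as Cdkn1a hold the kinases back. In the adult aorta endothelial cells are mostly quiescent and divide rarely, whereas leukocytes in the diseased wall can divide locally.

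S phase genes are known for E2F sites in their promoters and mitosis genes for the cell cycle homology region (CHR) near a CCAAT box, so promoters of both kinds are shown to let the reader see how the members differ in sequence. RefSeq windows (GRCm38.p6) of 300 bases, from 250 before to 50 after a start site, were searched on both strands and were there for 43 of the 55 members. Of these, 8 had more than 1 window, and a gene counted where any of its windows held a match. An E2F match (TTTGGCGC, TTTCCCGC, TTTCGCGC or TTTGGCGG) occurred in 9 of 18 S phase promoters (50%), 1 of 15 mitosis promoters (6.67%) and 4.98% of the 8192 promoters of genes in the table. A CHR match (TTTGAA or TTCGAA) occurred in 4 of 18 S phase promoters (22.2%), 11 of 15 mitosis promoters (73.3%) and 16.0% of the promoters of the table, and a CCAAT match in 10 of 18 (55.6%), 13 of 15 (86.7%) and 42.2%. These are letter matches and no test was made on them. The counts include bases after the start site and in exons, which the 6 stretches below leave out. They are printed 5′ to 3′ with every match on either strand in capitals: Mcm5 (chr8:75109259-75109508, + strand), with E2F matches that overlap on opposite strands, Mcm6 (chr1:128359706-128359955, - strand), Ccnb2 (chr9:70421555-70421804, - strand), Cdk1 (chr10:69352939-69353162, - strand), Ung (chr5:114130185-114130385, + strand) and Tcf19 (chr17:35516825-35517074, - strand). Mcm5 and Mcm6 carry E2F and CCAAT letters, Ccnb2 carries CHR and CCAAT letters, Cdk1 carries all 3 kinds, Tcf19 carries CCAAT letters and the Ung stretch holds none of them.
Mcm5: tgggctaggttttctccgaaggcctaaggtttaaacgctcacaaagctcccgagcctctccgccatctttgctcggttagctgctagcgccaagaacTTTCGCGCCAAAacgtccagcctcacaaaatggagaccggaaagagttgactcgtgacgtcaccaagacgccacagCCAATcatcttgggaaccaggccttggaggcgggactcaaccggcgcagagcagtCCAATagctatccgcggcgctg
Mcm6: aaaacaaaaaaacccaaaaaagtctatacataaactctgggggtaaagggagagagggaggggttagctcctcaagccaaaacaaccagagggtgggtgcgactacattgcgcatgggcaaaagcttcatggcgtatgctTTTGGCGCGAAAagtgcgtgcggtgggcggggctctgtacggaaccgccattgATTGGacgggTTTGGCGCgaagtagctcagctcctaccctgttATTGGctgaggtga
Ccnb2: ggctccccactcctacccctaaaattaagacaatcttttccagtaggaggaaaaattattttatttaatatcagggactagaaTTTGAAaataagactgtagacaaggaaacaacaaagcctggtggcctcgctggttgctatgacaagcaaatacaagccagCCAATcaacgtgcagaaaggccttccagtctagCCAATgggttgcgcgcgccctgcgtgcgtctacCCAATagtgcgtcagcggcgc
Cdk1: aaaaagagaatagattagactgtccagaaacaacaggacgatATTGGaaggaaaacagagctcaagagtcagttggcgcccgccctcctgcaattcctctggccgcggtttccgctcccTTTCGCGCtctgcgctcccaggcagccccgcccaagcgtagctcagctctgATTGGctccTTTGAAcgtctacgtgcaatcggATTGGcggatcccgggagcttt
Ung: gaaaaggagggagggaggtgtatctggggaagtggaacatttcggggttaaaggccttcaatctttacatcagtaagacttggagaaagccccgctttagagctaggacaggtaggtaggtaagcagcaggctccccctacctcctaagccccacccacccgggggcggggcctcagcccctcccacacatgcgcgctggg
Tcf19: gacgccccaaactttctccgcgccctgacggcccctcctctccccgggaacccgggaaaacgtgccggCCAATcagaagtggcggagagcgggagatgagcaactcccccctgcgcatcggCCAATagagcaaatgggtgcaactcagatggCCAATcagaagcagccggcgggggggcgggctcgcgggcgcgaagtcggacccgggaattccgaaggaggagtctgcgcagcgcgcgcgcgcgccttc

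Reads in the table ranged from 4074413 in WD_WD replicate 3 to 19670570 in CD_CD replicate 1. A single read was worth 0.347 to 0.669 normalised counts in CD offspring, and in WD libraries 0.861 to 3.96, so low members were measured more coarsely in WD offspring. The 20 most-read genes made up 12.9% to 14.4% of a library from CD offspring and 35.4% to 46.2% of one from WD offspring. Endothelial markers were detected in every library, except Robo4 in WD_WD replicate 2. The summed level of 20 endothelial markers ran from 79052 to 126311 normalised counts in CD offspring, from 4368 to 51481 for CD_WD and from 15721 to 28499 for WD_WD. Summed over 19 macrophage markers the ranges were 25613 to 41943 for CD_CD, 13427 to 140670 for WD_CD, 98214 to 649142 for CD_WD and 653025 to 1186040 for WD_WD, with none of them at 0 in any library. The 6 neutrophil markers in the table summed to 152 to 1416 in CD offspring, and in WD libraries 14449 to 196038, and the 15 lymphocyte markers to 410 to 6738 and 8295 to 417409. Il1r2 and Csf3r, both among the former, were at 0 in some CD libraries. The 13 markers of antigen presentation summed to 10665 to 85600 in CD offspring, and in WD libraries 369350 to 3757170, and the 12 smooth muscle markers to 13126 to 88076 and 1260 to 24040. Of these, Flt3, Clec9a, Cd209a and Itgax were at 0 in CD_CD replicate 1 or WD_CD replicate 2, and Lmod1 in CD_WD replicate 1. CD_WD replicate 1 stood apart with the lowest endothelial and the highest lymphocyte sum, and WD_CD replicate 3 had 463 genes without reads against 0 to 202 in the others. The 11 fibroblast markers summed to 48408 to 89981 in CD_CD, 49290 to 121663 in WD_CD, 5370 to 160459 in CD_WD and 12397 to 40690 in WD_WD. Most of these sums differed with the offspring's diet, and their part in the results on cell cycle genes was not tested. In such bulk RNA fewer dividing cells and less RNA per dividing cell cannot be told apart.

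The cell cycle genes spanned a wide range of abundance. Per kb of exon, averaged over the 12 libraries, the level was highest for Cdkn1a with 1828 normalised counts, followed by the D-type cyclin Ccnd2 with 499.6 and by Pcna with 492. Cdk4 followed with 308, E2f4 with 193 and Ccnd3 with 184. The level per kb was 36.1 for Cdk1, 26.4 for Mki67 and 23.1 for Top2a. Hinfp with 5.3, E2f3 with 6.4, Kif11 with 7.0 and Ccne2 with 7.2 were lowest. Genes of G1 control and the clamp Pcna thus led the list, while Mki67 and Top2a lay in the lower part of it. Licensing genes ran from 13.2 for Cdc6 to 85.3 for Mcm6. The mitosis genes Bub3 with 173, Cdc20 with 109 and Ccnb2 with 104 lay above all of them.

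**Figure D1:**
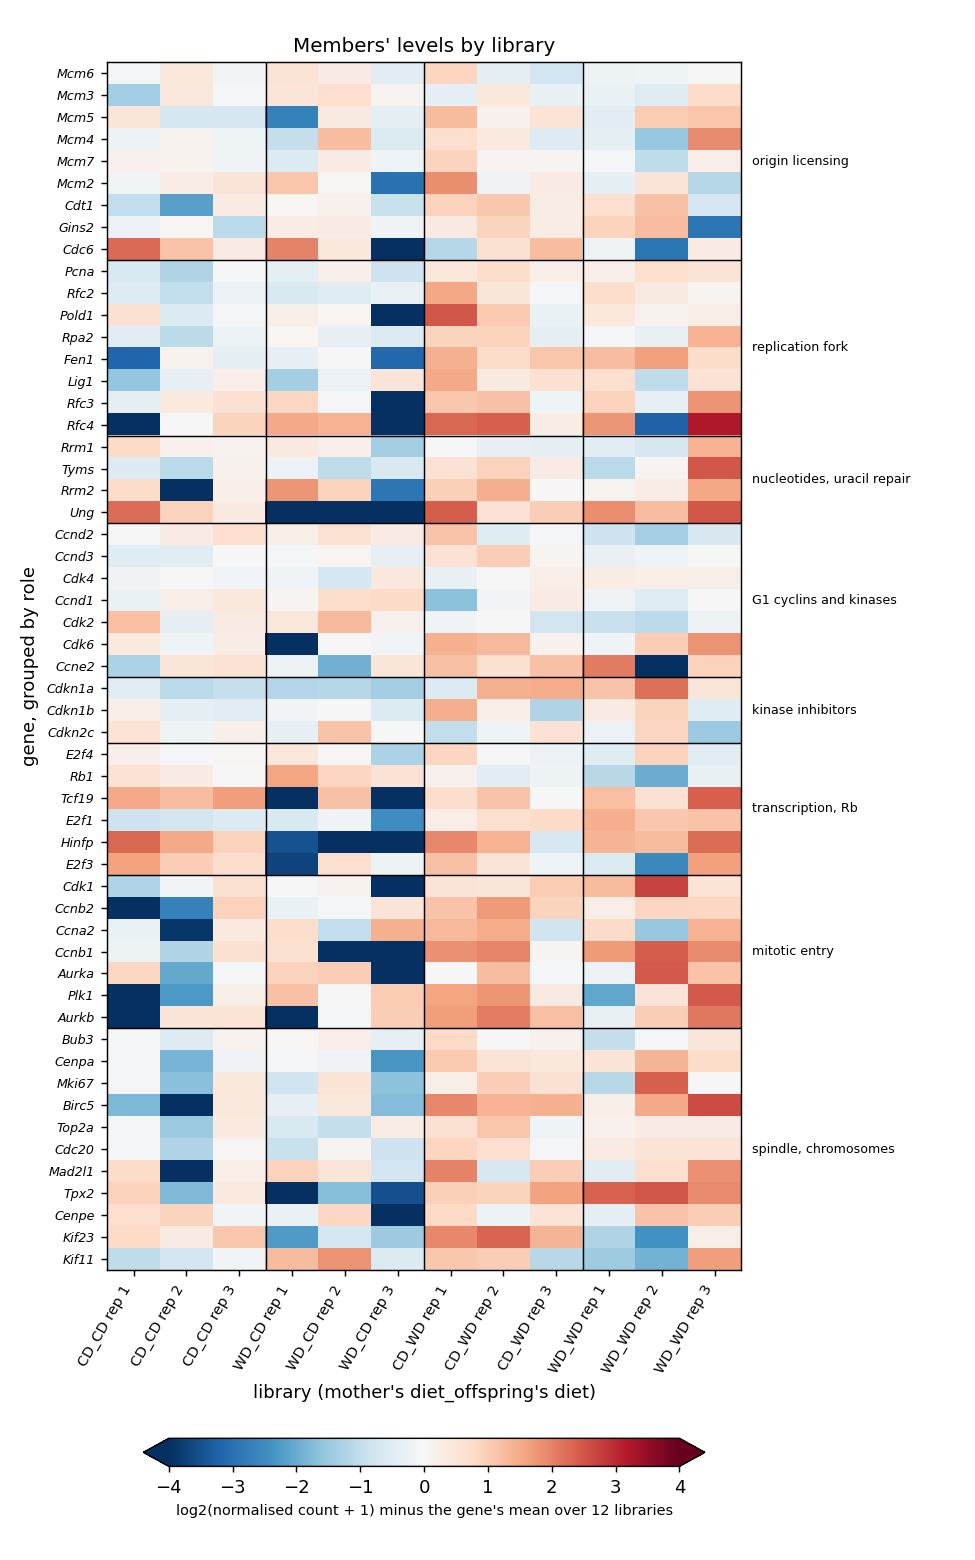
Level of each of the 55 genes (rows, grouped by role) in each of the 12 libraries (columns), as log2(normalised count + 1) minus the gene's mean over all libraries, with colours held at 4 in either direction. Dark blue cells lie mostly in CD_CD replicates 1 and 2 and in the WD_CD libraries, where Ung and Hinfp are low in all 3, and WD_WD replicate 3 holds the highest value of 14 genes.

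Replicates differed widely in these genes. The SD between replicates on the log2 scale, pooled over the 4 groups, had a median of 0.99 over the 55 members and of 1.47 over the 18 mitosis genes, against 0.81 over all genes. It ran from 0.29 for Ccnd3, 0.32 for Cdk4 and 0.43 for Pcna to 2.31 for Aurkb and 3.12 for Rfc4, a clamp loader subunit. Of the members, 19 had 3 reads or fewer in at least 1 library, and these cases fell in WD_CD replicate 3 (10 members), WD_CD replicate 1 (7), WD_WD replicate 2 (4), CD_CD replicate 1 and WD_CD replicate 2 (3 each), CD_CD replicate 2 (2) and WD_WD replicates 1 and 3 (1 each). In WD_CD replicate 3 that is 18.2% of the members against 6.46% of all genes. No member was at or under 3 reads in CD_CD replicate 3 or in any CD_WD library.

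**Figure D2:**
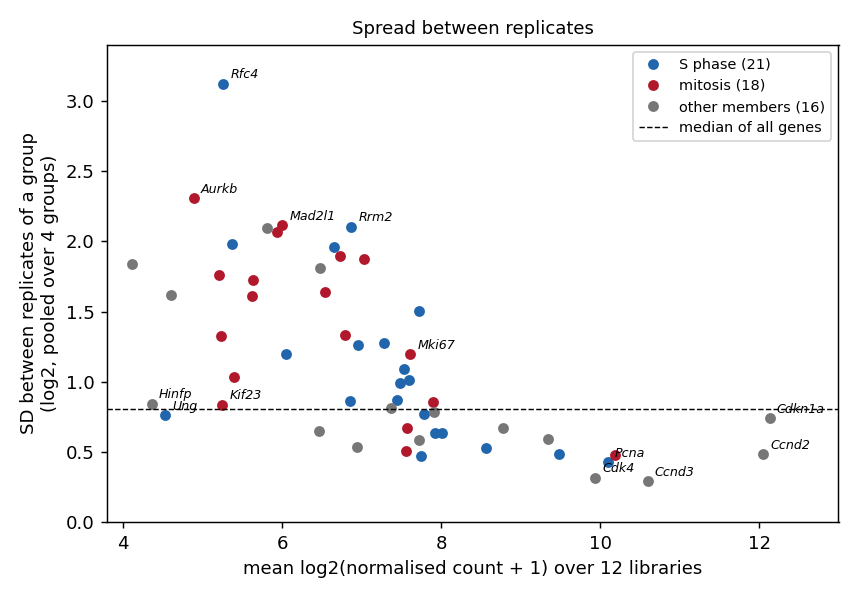
SD between replicates of a group (log2, pooled over 4 groups) against the mean log2 level over 12 libraries for the 55 genes, with the median of all genes, 0.81, as a dashed line. Abundant G1 genes such as Ccnd3 and Cdk4 and the clamp Pcna sit below the line, and most mitosis genes sit above it.

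S phase and mitosis genes were compared as lists. The mean log2 level of the 21 S phase genes was 6.91, 6.87 and 7.33 for CD_CD, 7.18, 7.32 and 5.45 for WD_CD, 8.29, 7.94 and 7.46 for CD_WD, and 7.58, 7.14 and 8.06 for WD_WD. With CD mothers every WD library lay above every CD library, and with WD mothers the groups overlapped. For the 18 mitosis genes the mean was 5.69, 4.73 and 6.84 for CD_CD, 5.98, 6.30 and 4.85 for WD_CD, 7.63, 7.54 and 6.97 for CD_WD, and 6.47, 7.30 and 7.71 for WD_WD. Here WD libraries lay above CD libraries with either kind of mother. The mitosis mean minus the S phase mean was -1.28 ± 0.83 (SD, n = 3) for CD_CD, -0.94 ± 0.31 for WD_CD, -0.52 ± 0.14 for CD_WD and -0.43 ± 0.64 for WD_WD, ranges that overlapped between the groups. No test was made on a list mean.

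**Figure D3:**
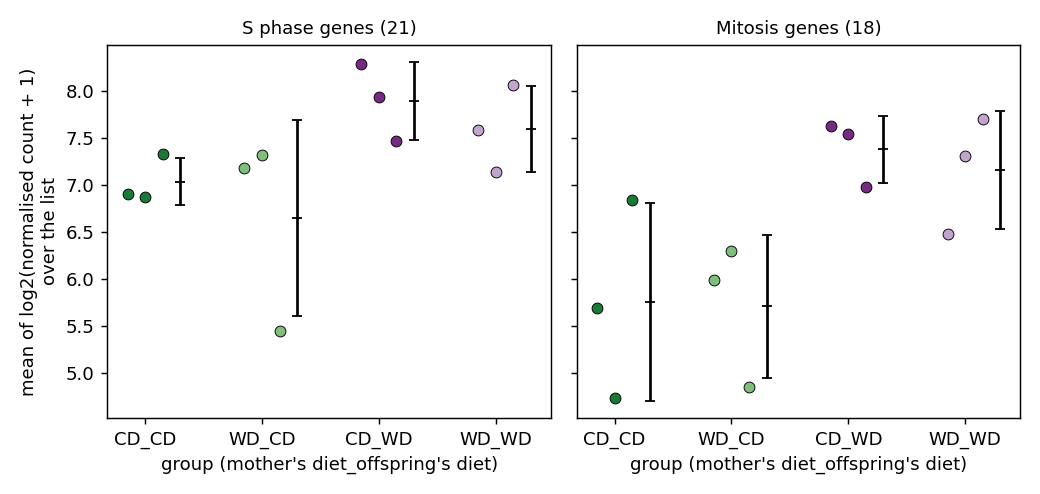
Mean log2(normalised count + 1) over 21 S phase genes (left) and 18 mitosis genes (right) in each library (points), with the group mean and SD (bars, n = 3). CD_WD lies above CD_CD in both panels and WD_WD above WD_CD in the mitosis panel only, and WD_CD replicate 3 is the lowest S phase point at 5.45.

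The direction of these lists depended on the scaling. As deposited, values are relative to the typical gene of each library, and the median log2 fold change of all genes was -0.02 with CD mothers and 0.01 with WD mothers. Scaled to equal library totals, that median was -1.45 and -1.36, and the S phase median turned from 0.96 to -0.48 with CD mothers and from 0.63 to -0.75 with WD mothers. The mitosis median turned from 1.21 to -0.21 and from 1.03 to -0.34. In either scaling the medians of both lists lay above the median of all genes. Of all reads, the 55 members made up 0.236% to 0.328% of each library from CD offspring and 0.118% to 0.223% of each from WD offspring. Higher and lower are used below relative to the typical gene, as deposited.

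Limma called genes for the offspring's diet and none for the mother's. In offspring of WD mothers, limma called 9 of the 55 genes (16.4%) at an adjusted p under 0.05, against 24.4% of all 10655 genes (14.2% higher, 10.2% lower). The 7 that rose were Ung, Hinfp, Tpx2, Ccnb1, Tcf19, Cdkn1a and E2f1, and the 2 that fell were Rb1 and Ccnd2. In offspring of CD mothers 1 of 55 (1.82%) was called, Ccnb2, which rose, against 15% of all genes (9.46% higher, 5.55% lower). On recovered reads edgeR called 6 members with WD mothers and 0 with CD mothers, against 19.8% and 13.6% of all genes, and DESeq2 called 9 and 3, against 29.2% and 24.3%. Those DESeq2 called and limma did not were Tyms, which was higher, and Cdk2, which was lower, with WD mothers, and Cdkn1a, Ccnd3 and Rfc2, all higher, with CD mothers. With a replicate block limma called 9 and 1, against 21.8% and 13.4%. Without CD_WD replicate 1 and WD_CD replicate 3 it called 7 and 1, against 25.5% and 12.6%. The share of members called was thus below the background in both comparisons. Of the 16 members of G1 and transcription control, 6 were called with WD mothers, against 24.4% of all genes. With CD mothers none of the 16 was called, against 15% of all genes. These roles were assigned with earlier results of these data known. Fold changes are on the log2 scale of normalised count + 1, which understates the change of low genes.

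Above 0 were 43 of the 55 genes in the comparison with CD mothers, with a median of 0.90, and 40 with WD mothers, with a median of 0.59. Of all genes, 5261 and 5339 of 10655 were above 0. The comparisons share no library, and 35 members (63.6%) were above 0 in both, 7 below 0 in both and 13 opposite, against 39.5% of all genes above 0 in both. Among S phase genes 15 of 21 were above 0 in both, and among mitosis genes 13 of 18. All 8 genes of the replication fork were above 0 in both comparisons, while of the 9 licensing genes 7 were above 0 with CD mothers and 4 with WD mothers. This lean was shallow gene by gene. Between groups that did not overlap, 14 members (25.5%) were higher and 2 (3.64%) lower with CD mothers, against 21.9% and 21.6% of all genes, and 12 (21.8%) were higher and 4 (7.27%) lower with WD mothers, against 21.9% and 19.4%. Only the lower share stood below the background, and the higher share was near it.

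**Figure D4:**
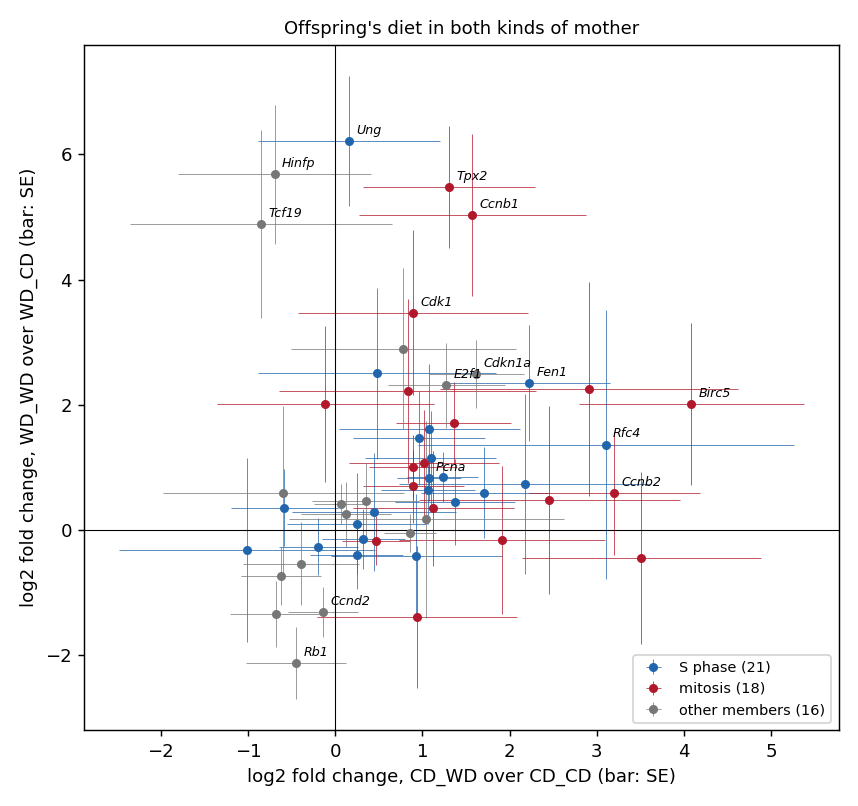
Log2 fold change of the offspring's diet with CD mothers (x axis, CD_WD over CD_CD) against that with WD mothers (y axis, WD_WD over WD_CD) for the 55 genes, with bars of 1 SE and colours for S phase, mitosis and other members. Most points lie right of and above 0, Ung, Hinfp, Tpx2, Tcf19 and Ccnb1 stand highest on the y axis, and Rb1 and Ccnd2 lie lowest among the genes named.

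Among licensing genes limma called 0 of 9 in any comparison. For the offspring's diet 15% of all genes were called with CD mothers and 24.4% with WD mothers. An unadjusted p under 0.05 was found for 1 of the 9 with CD mothers and 0 with WD mothers, against 3215 and 4137 of all 10655 genes. Mcm5, a subunit of the replicative helicase with overlapping E2F letters in the promoter shown above, measured 270, 117 and 119 normalised counts in CD_CD, 28.8, 247 and 145 for WD_CD, 459, 216 and 283 for CD_WD, and 139, 393 and 416 for WD_WD. All groups overlapped, and the log2 fold changes of the offspring's diet were 0.96 ± 0.76 (SE) with CD and 1.47 ± 0.76 with WD mothers. Mcm2, another helicase subunit, measured 114, 151 and 177 for CD_CD, 265, 128 and 14.7 for WD_CD, 451, 111 and 155 for CD_WD, and 95, 177 and 55.4 for WD_WD. WD_CD replicate 3 held the lowest value and CD_WD replicate 1 the highest, and all groups overlapped. Mcm7 lay between 105 and 398 in all 12 libraries, and a processed pseudogene, Gm5487, matches 72.8% of its transcript at 97.7% identity. Cdt1, which loads the helicase, averaged 75.1 ± 61.3 (SD, n = 3) for CD_CD and 200 ± 53.4 for CD_WD, and Cdc6, its partner, 114 ± 77.3 and 59.0 ± 39.5. Gins2, part of the active helicase, shares 67.3% of its exon bases with Gse1 on the opposite strand, and since strand handling is not given in the sources used here, their reads cannot be told apart.

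At the replication fork 3 genes were separated by the offspring's diet in all 12 libraries, though limma called none of them. Pcna, the sliding clamp, measured 713, 474 and 1086 for CD_CD, 829, 1271 and 612 for WD_CD, 1501, 1766 and 1293 for CD_WD, and 1292, 1730 and 1608 for WD_WD. Each WD library lay above each CD library, with log2 fold changes of 1.07 ± 0.37 (SE, limma adjusted p = 0.068) with CD and 0.83 ± 0.37 (0.117) with WD mothers. The processed pseudogene Pcna-ps2 matches 51.45% of the Pcna transcript at 99.23% identity. Rfc2, a clamp loader subunit, measured 501, 357 and 609 for CD_CD, 472, 506 and 592 for WD_CD, 2079, 994 and 683 for CD_WD, and 1174, 908 and 772 for WD_WD. Its log2 fold changes were 1.23 ± 0.40 (limma adjusted p = 0.0589) and 0.85 ± 0.40 (0.14), and 15.1% of its exon bases overlap Lat2 on the opposite strand. Fen1, which trims flaps between lagging-strand fragments, measured 16.3, 172 and 119 for CD_CD, 122, 157 and 16.7 for WD_CD, 421, 257 and 332 for CD_WD, and 365, 482 and 257 for WD_WD. Its log2 fold changes were 2.22 ± 0.92 (limma adjusted p = 0.126) and 2.35 ± 0.92 (0.0807), and 78.8% of its exon bases overlap the antisense gene Gm10143. E2f1 and Cenpa were the only other members whose 6 WD libraries all lay above all 6 CD libraries, which makes 5 of 55 members against 12.6% of all genes. No member was lower in that way, against 9.69% of all genes. This count was chosen after the values were seen, and with equal library totals it was 0 higher and 9 lower, against 2.47% and 37.3%.

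For the other fork genes the groups were less apart. Lig1, the ligase that seals those fragments, averaged 134 ± 74.0 for CD_CD, 153 ± 91.2 for WD_CD, 330 ± 151 for CD_WD and 207 ± 106 for WD_WD. Pold1, the catalytic subunit of polymerase delta, was at 1176 in CD_WD replicate 1 and between 9.36 and 435 in the other 11 libraries. Rfc4 was without reads in CD_CD replicate 1 and WD_CD replicate 3 and reached 352 in WD_WD replicate 3, so its groups overlapped throughout.

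Among genes of nucleotide supply and uracil repair, Ung was set apart by a single group. Ung, the glycosylase that removes uracil from DNA (chr5:114130386-114139323, + strand, GENCODE on GRCm38), measured 108, 42.1 and 28.8 for CD_CD, 122, 33.5 and 44.8 for CD_WD, and 82.2, 53.1 and 127 for WD_WD, but 0, 0.398 and 0 for WD_CD. All 3 WD_CD libraries together held 1 read, and every other library lay at 28.8 or above. With WD mothers Ung rose by 6.22 ± 1.04 on the log2 scale (SE, limma adjusted p = 0.00181), and the ratio of read rates, WD_WD over WD_CD, was 484 with an exact 95% counting interval of 84.9 to 19309. The values of WD_WD, CD_CD and CD_WD overlapped, and WD_CD was the group set apart. Rrm2, the regulated subunit of ribonucleotide reductase, measured 195, 2.45 and 134 for CD_CD, 393, 220 and 14.7 for WD_CD, 226, 320 and 114 for CD_WD, and 126, 143 and 341 for WD_WD, with no separation. Tyms, thymidylate synthase, was at 1010 in WD_WD replicate 3 and between 83.8 and 337 elsewhere.

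**Figure D5:**
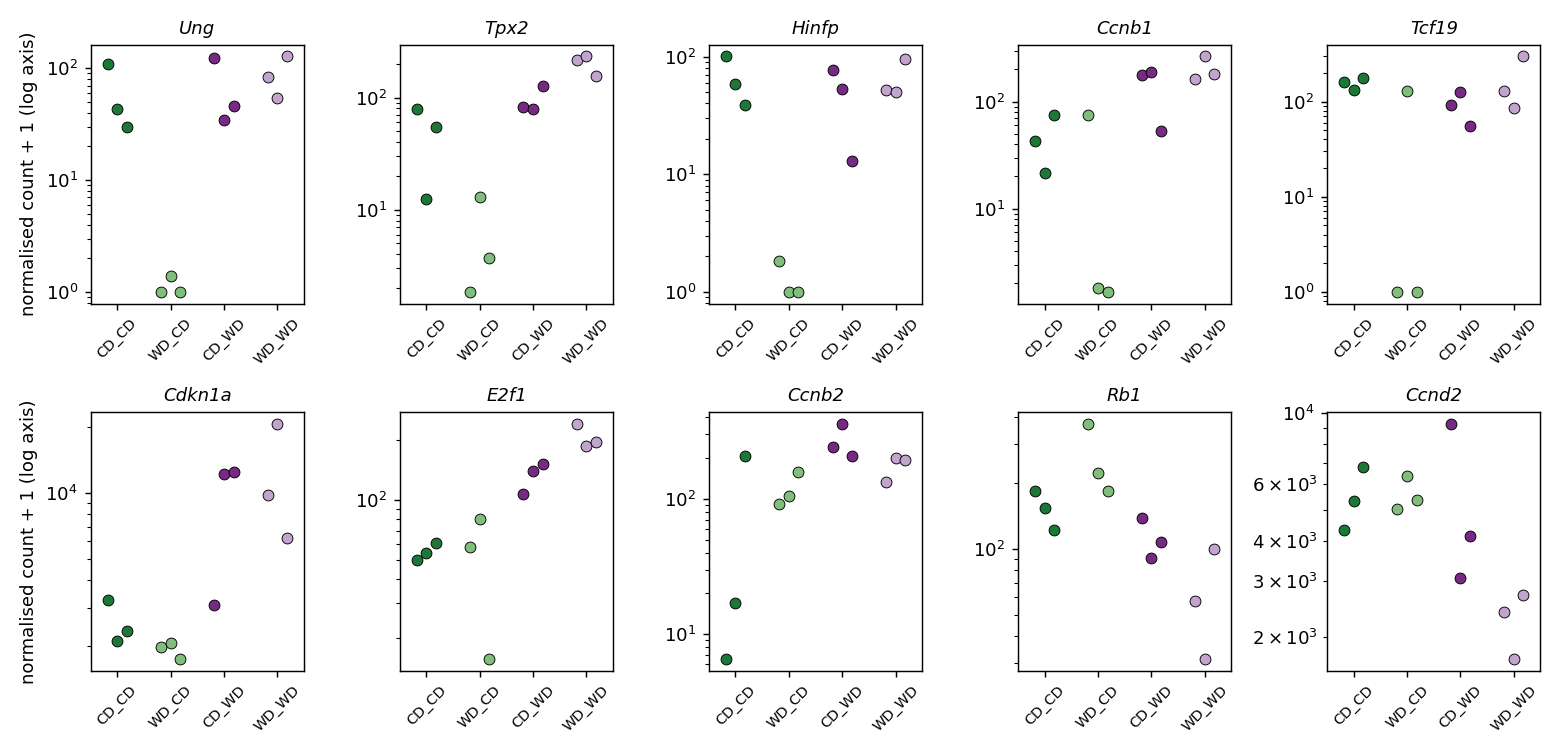
Normalised count + 1 (log axis) of the 10 genes called in either comparison of the offspring's diet, with 1 point per library and the 4 groups side by side. Ung and Hinfp are near 1 in all 3 WD_CD libraries and similar elsewhere, Cdkn1a and E2f1 are higher in WD offspring except for Cdkn1a in CD_WD replicate 1, and Rb1 and Ccnd2 have their lowest means in WD_WD.

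Hinfp and Tcf19, transcription factors that act around the start of S phase, resembled Ung. Hinfp, which activates histone genes (chr9:44292440-44305671, - strand), measured 99.2, 57.6 and 37.7 for CD_CD, 0.848, 0 and 0 for WD_CD, 76.1, 52.3 and 12.1 for CD_WD, and 51.4, 48.5 and 95 for WD_WD. It rose by 5.68 ± 1.11 with WD mothers (limma adjusted p = 0.00389), from 2 reads in WD_CD to 76 for WD_WD, a ratio of rates of 186 (49.7 to 1562). The Hinfp call was lost with only the groups compared. With a mean value of 44.2 over all libraries, Hinfp was left out of the fit that required at least 50. Tcf19 (chr17:35512734-35516824, - strand, promoter shown above) measured 158, 130 and 177 for CD_CD, 0, 127 and 0 for WD_CD, 91.3, 123 and 54.2 for CD_WD, and 128, 84.9 and 297 for WD_WD. WD_CD replicate 2 thus lay within the range of the other groups while its fellow replicates held no read. Tcf19 rose by 4.89 ± 1.5 with WD mothers (limma adjusted p = 0.0326), a call that was lost without WD_CD replicate 1 or 3, the libraries at 0 (0.0978 and 0.111), and without any 1 of the WD_WD libraries (0.0558 to 0.0956). It was also lost with edgeR (0.425), DESeq2 (0.318), equal library totals (0.0665), only the groups compared (0.108) and without WD_CD replicate 3 and CD_WD replicate 1 together (0.0993).

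E2f1, an activating E2F factor (chr2:154559407-154569892, - strand), rose in WD offspring of WD mothers. It measured 48.6, 52.7 and 59.2 for CD_CD, 56.8, 78.9 and 14.7 for WD_CD, 106, 138 and 151 for CD_WD, and 241, 185 and 194 for WD_WD. The order CD_CD, CD_WD, WD_WD held for every library, and the WD_CD libraries fell on both sides of CD_CD. The log2 fold change was 2.31 ± 0.67 with WD mothers (SE, limma adjusted p = 0.0265) and 1.27 ± 0.67 with CD mothers (0.224), and the call was lost without WD_CD replicate 3 (adjusted p = 0.0689) or without any 1 of the WD_WD libraries (0.0504 to 0.0637). It was also lost with edgeR (0.0627), equal library totals (0.294), only the groups compared (0.0991) and without WD_CD replicate 3 and CD_WD replicate 1 together (0.0714), and DESeq2 called it (0.00422). Rb1, the retinoblastoma protein that restrains E2F (chr14:73183673-73325822, - strand), fell in the same comparison. It measured 181, 152 and 121 for CD_CD, 370, 221 and 182 for WD_CD, 137, 90.0 and 106 for CD_WD, and 56.5, 30.3 and 99.0 for WD_WD. All WD_WD libraries lay below all WD_CD libraries, with a log2 fold change of -2.13 ± 0.57 (limma adjusted p = 0.0191), lost without WD_CD replicate 1 (0.0635) or WD_WD replicate 2 (0.054) and with only the groups compared (0.0802). Rb1 shares 6.78% of its exon bases with Lpar6 and 8.11% with Rcbtb2, both on the opposite strand. E2f3 and E2f4 were not called, and E2f4 lay between 183 and 831.

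Of the 7 G1 cyclins and kinases limma called Ccnd2 alone, with WD mothers, against 24.4% of all genes. With CD mothers none of the 7 was called for the offspring's diet, against 15%. Ccnd2 (chr6:127125162-127152193, - strand) measured 4321, 5322 and 6813 for CD_CD, 5004, 6353 and 5352 for WD_CD, 9277, 3057 and 4126 for CD_WD, and 2389, 1703 and 2696 for WD_WD. WD_WD lay below each of the other 9 libraries, and Ccnd2 fell by 1.32 ± 0.40 on the log2 scale with WD mothers (SE, limma adjusted p = 0.0314). The call was lost without any 1 of the WD_CD libraries or without WD_WD replicate 1 or 2 (adjusted p = 0.0529 to 0.106). Ccnd1 measured 544, 786 and 878 for CD_CD, 704, 1066 and 1103 for WD_CD, 208, 603 and 822 for CD_WD, and 583, 464 and 649 for WD_WD, with log2 fold changes of -0.62 ± 0.46 and -0.74 ± 0.46, and only its groups of WD mothers did not overlap. Ccnd3 measured 1117, 1129 and 1548 for CD_CD, 1475, 1652 and 1244 for WD_CD, 2294, 3076 and 1653 for CD_WD, and 1269, 1375 and 1572 for WD_WD. CD_WD was thus the high group for Ccnd3, at 0.86 ± 0.30 over CD_CD (limma adjusted p = 0.0744), while Ccnd2 was low in WD_WD. Cdk6, a partner of these cyclins, measured 116, 78.5 and 108 for CD_CD, 0.424, 88.1 and 80.9 for WD_CD, 238, 218 and 98.1 for CD_WD, and 79.6, 173 and 305 for WD_WD, and its groups overlapped. Cdk4, the other partner, stayed between 599 and 1317 in all 12 libraries. Cdk2, which acts with E-type cyclins, averaged 345 ± 147 for WD_CD and 132 ± 44.1 for WD_WD, groups that did not overlap (log2 fold change -1.35 ± 0.52, limma adjusted p = 0.0777).

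Cdkn1a, an inhibitor of cyclin-dependent kinases and a classical target of p53 (chr17:29090976-29100727, + strand), was the most abundant member and rose in WD offspring of WD mothers. It measured 3254, 2113 and 2349 for CD_CD, 1982, 2058 and 1745 for WD_CD, 3085, 12152 and 12453 for CD_WD, and 9812, 20660 and 6256 for WD_WD. Of the 6 WD libraries 5 lay above every CD library, and the exception was CD_WD replicate 1, the library with the lowest endothelial marker sum. The log2 fold change was 2.49 ± 0.54 with WD mothers (SE, limma adjusted p = 0.00688) and 1.62 ± 0.54 with CD mothers (0.0632). Without CD_WD replicate 1 the latter was 2.28 and was called (adjusted p = 0.00263). With equal library totals the former was 1.11 and was not called (0.186). The other inhibitors did not share this pattern by their values. Cdkn1b measured 283, 186 and 180 for CD_CD, 225, 235 and 165 for WD_CD, 654, 291 and 103 for CD_WD, and 301, 443 and 170 for WD_WD. Cdkn2c measured 243, 146 and 192 for CD_CD, 132, 362 and 162 for WD_CD, 83.7, 146 and 245 for CD_WD, and 139, 302 and 59.4 for WD_WD. Groups overlapped for both, with log2 fold changes of the offspring's diet of 0.35 ± 0.61 and 0.46 ± 0.61 for Cdkn1b and of -0.39 ± 0.66 and -0.54 ± 0.66 for Cdkn2c.

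Among genes of mitotic entry, the B-type cyclins were called in different comparisons. Ccnb1 (chr13:100778650-100786570, - strand) measured 41.6, 20.4 and 74.3 for CD_CD, 74.2, 0.797 and 0.669 for WD_CD, 175, 190 and 52.5 for CD_WD, and 162, 264 and 182 for WD_WD. It rose by 5.03 ± 1.30 with WD mothers (SE, limma adjusted p = 0.0158). The call was lost without WD_CD replicate 2 or 3, which hold 3 reads or fewer (adjusted p = 0.0578 and 0.0545), and without WD_WD replicate 2 (0.0502). It was also lost with edgeR (0.156) and with only the groups compared (0.0536), and DESeq2 gave it no p-value. The processed pseudogene Ccnb1-ps matches 51.7% of its transcript at 99.2% identity, so the counting could have split its reads. Ccnb2 (chr9:70407692-70421547, - strand, promoter shown above) measured 5.55, 15.9 and 206 for CD_CD, 91.2, 103 and 158 for WD_CD, 241, 358 and 205 for CD_WD, and 131, 199 and 194 for WD_WD. CD_CD replicate 3 lay just above the lowest CD_WD library, so the groups overlapped. Ccnb2 rose by 3.20 ± 0.99 with CD mothers (limma adjusted p = 0.0454). The call held without CD_CD replicate 3 (4.63, limma adjusted p = 0.00441), and it was lost without any 1 of the other 11 libraries (0.0546 to 0.173), with equal library totals (0.172) and with edgeR (0.266) or DESeq2 (0.151). The difference between mothers, tested as an interaction, was 3.46 ± 1.84 for Ccnb1 and -2.62 ± 1.39 for Ccnb2, both with a limma adjusted p of 0.997. Cdk1 measured 45.4, 98.1 and 161 for CD_CD, 104, 116 and 0.669 for WD_CD, 150, 149 and 213 for CD_WD, and 257, 692 and 154 for WD_WD, with a log2 fold change of 3.47 ± 1.32 with WD mothers (limma adjusted p = 0.0723). Its groups with WD mothers did not overlap, and WD_CD replicate 3 held 1 read.

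Of the 11 spindle and chromosome genes limma called Tpx2 alone, with WD mothers, against 24.4% of all genes. With CD mothers none of the 11 was called for the offspring's diet, against 15%. Tpx2, a spindle assembly factor that activates Aurora A kinase (chr2:152847964-152895321, + strand), measured 78.8, 11.4 and 54.0 for CD_CD, 0.848, 12 and 2.67 for WD_CD, 81.1, 77.4 and 127 for CD_WD, and 216, 232 and 154 for WD_WD. WD_WD lay above all other libraries and WD_CD was low, and Tpx2 rose by 5.48 ± 0.98 with WD mothers (SE, limma adjusted p = 0.00245). Birc5, the chromosomal passenger protein survivin, measured 36.8, 0.817 and 177 for CD_CD, 103, 177 and 38.1 for WD_CD, 497, 341 and 349 for CD_WD, and 154, 373 and 804 for WD_WD. Its log2 fold change with CD mothers, 4.08 ± 1.29, just missed the threshold (limma adjusted p = 0.0508). Cenpa, the centromeric histone, averaged 168 ± 89.0 for CD_CD, 163 ± 101 for WD_CD, 385 ± 93.9 for CD_WD and 451 ± 144 for WD_WD. Its 6 WD libraries lay above all CD libraries, with limma adjusted p = 0.184 and 0.0741.

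Mki67, the common marker of dividing cells, did not separate the groups. It measured 189, 60.9 and 267 for CD_CD, 111, 285 and 62.2 for WD_CD, 228, 383 and 296 for CD_WD, and 89.9, 1011 and 198 for WD_WD. The highest value, in WD_WD replicate 2, stood beside one of the lowest in WD_WD replicate 1, and the log2 fold changes were 1.02 ± 0.86 and 1.06 ± 0.86. Top2a, the topoisomerase of condensing chromosomes, measured 181, 67.0 and 249 for CD_CD, 123, 97.2 and 234 for WD_CD, 289, 406 and 168 for CD_WD, and 211, 238 and 238 for WD_WD. Its groups overlapped with log2 fold changes of 0.90 ± 0.58 and 0.69 ± 0.58. Kif23, a kinesin of the central spindle, went another way. It measured 64.9, 46.6 and 79.5 for CD_CD, 6.79, 22.7 and 12.7 for WD_CD, 142, 188 and 95.5 for CD_WD, and 15.4, 6.07 and 43.6 for WD_WD. With either offspring diet the groups of WD mothers lay below those of CD mothers without overlap.

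For the mother's diet limma called none of these genes. In CD offspring 0 of 55 were called, against 0% of all genes, and 6 members had an unadjusted p under 0.05, as did 276 of all genes. In WD offspring 0 of 55 were called, against 0%, and 3 members had an unadjusted p under 0.05, as did 628 of all genes. edgeR on the recovered reads called 0 members in either comparison, and DESeq2 called 2 in CD offspring, against 0.0849% of all genes, and 0 in WD offspring, against 0.132%. With a replicate block, or without CD_WD replicate 1 and WD_CD replicate 3, limma called 0 members in either, against 0% in CD offspring and 0.00939% in WD offspring. The 5 members with the smallest p in CD offspring were Ung, Hinfp, Tcf19, Tpx2 and Kif23, each with a lower mean in WD_CD. Ung lay at 486 reads in CD_CD against 1 for WD_CD, a ratio of rates of 397 (70.9 to 15702, limma adjusted p = 0.775), and Hinfp at 520 against 2, a ratio of 212 (58.5 to 1757, limma adjusted p = 0.775). The authors' deposited table gives both an adjusted p under 0.05 in this comparison, which 13 of all genes had there. The log2 fold changes in it were -8.43 for Ung and -7.71 for Hinfp. The pair DESeq2 called was the same. Tpx2 had a log2 fold change of -3.09 ± 0.98 and Kif23 of -2.21 ± 0.92, both with a limma adjusted p of 1.00. Tcf19, at -4.94 ± 1.5, was called only without WD_CD replicate 2 (-7.27, limma adjusted p = 0.00889). Between groups that did not overlap, 1 member, Rb1, was higher (1.82%) and 6 were lower (10.9%) in WD_CD, against 4% and 4.87% of all genes.

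In WD offspring the members with the smallest p were Kif23, Ccnd2, Ccnd3, Rb1 and Mcm7, each with a lower mean in WD_WD than in CD_WD. Their log2 fold changes were -2.99 ± 0.92, -1.14 ± 0.40, -0.70 ± 0.30, -0.97 ± 0.57 and -0.65 ± 0.47, with limma adjusted p between 0.836 and 0.899. E2f1 and Tpx2 were higher (3.64%) and Ccnd2, Ccnd3, Ccnb2 and Kif23 lower (7.27%) in WD_WD with no overlap, against 5.86% and 4.16% of all genes. In this comparison none of the members in the authors' deposited table passed an adjusted p of 0.05, against 36 of all genes. Ung, Hinfp and Tcf19, low in WD_CD, were 87.3 ± 37.1, 65.0 ± 26.1 and 170 ± 112 for WD_WD and 66.6 ± 48.0, 46.8 ± 32.4 and 89.6 ± 34.6 for CD_WD. The interaction, the effect of the mother's diet in WD offspring minus that in CD offspring, was called for 0 members, against 0% of all genes, with an unadjusted p under 0.05 for 4 members and 342 genes. These were Ung (6.06 ± 1.47), Hinfp (6.38 ± 1.56), Tpx2 (4.18 ± 1.39) and Tcf19 (5.74 ± 2.12), and the next was Ccnd3 (-0.91 ± 0.43), all with a limma adjusted p of 0.997. DESeq2 called the interaction for Ung and Hinfp, against 0.0944% of all genes, and edgeR for none.

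Other genes of the same pathways, from lists outside the 55, are given beside the calls over all genes, of which 9.46% rose and 5.55% fell with CD mothers and 14.2% rose and 10.2% fell with WD mothers. Of 40 further replication genes 4 rose and 0 fell with CD mothers, and 6 rose and 0 fell with WD mothers, so that 10% and 15% of them rose. Pole4, an accessory subunit of polymerase epsilon, rose from 453 ± 94.4 to 2644 ± 2253 (limma adjusted p = 0.00923) with CD and from 421 ± 131 to 2812 ± 474 (0.00212) with WD mothers. Slbp, which binds the ends of histone messages, rose from 526 ± 143 to 1705 ± 621 with CD mothers (limma adjusted p = 0.0123). Rnaseh2a, a subunit of the ribonuclease that clears ribonucleotides from DNA, rose from 159 ± 53.3 to 661 ± 212 with WD mothers (limma adjusted p = 0.00979). Of 44 further mitosis genes 3 rose and 1 fell with CD mothers and 5 rose and 2 fell with WD mothers. H2afz, a histone variant, rose from 1723 ± 559 to 7423 ± 2675 with CD mothers (limma adjusted p = 0.00233), and Hmgb2, a chromatin protein, from 820 ± 293 to 9132 ± 8765 (0.00565). The genes that fell were Cenpb, which binds centromeric repeats, and Cenpi. Cenpb fell from 791 ± 194 to 126 ± 54.5 with CD mothers (limma adjusted p = 0.00167). Cenpi fell from 90.1 ± 73.8 to 5.36 ± 2.45 with WD mothers (limma adjusted p = 0.0443).

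Of 23 genes of the anaphase-promoting complex and cohesin 1 rose and 4 fell with CD mothers, and 1 rose and 6 fell with WD mothers, beside 5.55% and 10.2% of all genes lower. Anapc13 rose from 573 ± 132 to 3151 ± 2107 (limma adjusted p = 0.00481), while Anapc2 fell from 947 ± 362 to 227 ± 60.2 (0.00352) and Anapc1 from 358 ± 78.9 to 96.8 ± 42.4 (0.0188) with CD mothers. Rad21, the cohesin kleisin, fell from 496 ± 139 to 122 ± 43.7 with WD mothers (limma adjusted p = 0.00546). Of 32 further G1 control genes 1 rose and 1 fell with CD mothers and 3 rose and 2 fell with WD mothers. Mxd1, an antagonist of Myc, rose from 128 ± 20.3 to 1055 ± 438 with CD mothers (limma adjusted p = 0.00306) and Ccni fell from 1075 ± 401 to 364 ± 146 (0.0196). Skp1a rose from 1870 ± 70.9 to 3549 ± 1041 with WD mothers (limma adjusted p = 0.0416), and Fbxw7, a substrate receptor that marks cyclin E for decay, fell from 255 ± 101 to 67.0 ± 95.7 (0.0457). Of 22 genes of the p53 and DNA damage response 5 rose and 1 fell with CD mothers and 4 rose and 1 fell with WD mothers. Pmaip1 rose from 32.1 ± 11.9 to 685 ± 113 (limma adjusted p = 0.00228), Gadd45a from 252 ± 77.2 to 948 ± 44.9 (0.00303), and Tob1 fell from 445 ± 215 to 78.8 ± 22.5 (0.0126) with CD mothers. Equal library totals moved the median of all genes by -1.43 and -1.37, a larger step than the log2 fold change of 0.88 for Skp1a.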

How the data were processed

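Per the submitters' processing notes, reads were checked with FastQC 0.12.1, trimmed with Trim Galore 0.6.10, aligned with HISAT2 2.2.1 and handled with SAMtools 1.13, and featureCounts 2.0.1 and DESeq2 are named beside GRCm38 and mm10. How strand and low genes were handled is not stated there, and every gene deposited had reads in at least 9 libraries. The deposited signal values are gene counts divided by size factors, since whole reads were recovered for 100% of 127860 values (tolerance 0.01), taking the lowest value of CD_CD replicate 3 as 3 reads. The deposited table also holds the authors' log2 fold changes and p-values for the mother's diet.

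From the deposited values, log2(value + 1) of all 12 libraries entered 1 limma model (R 4.3.3, limma 3.58.1, mean-variance trend, 8 residual degrees of freedom) with 5 contrasts. Benjamini-Hochberg adjusted p, two-sided, ran over all 10655 genes, and called means under 0.05. On recovered reads, edgeR 4.0.16 and DESeq2 1.42.0 were alternatives, as were pseudocounts of 0.5 and 8, equal library totals, TMM scaling, a mean value of at least 50, only the groups compared, a replicate block and leaving out each library. The limma fit was also run on simulated counts, with changes planted in randomly picked genes for the offspring's diet with CD mothers. That run was not made for the members in particular, and no result here rests on it. Counting intervals are exact at 95% and cover counting error only, and depth is given with the results. Full values were given for every called member and for the 5 with the smallest p per contrast, except Mcm7, given as a range. Further members were named for their role or, like Fen1 and Cenpa, for a separation seen in the values. A search for genes of like pattern, planned for Mki67 and Mcm5, was not made. Members and gene lists were chosen with earlier results of these data known. Same-numbered libraries did not deviate together (r -0.232 to 0.0740 over 18 pairs), so the numbers were not taken as pairs.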

Additional observations from a re-analysis of the deposited data

How the results depend on the processing

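Low read numbers limited the low genes most, as 19 members had 3 reads or fewer in some library. Such members numbered 3 in CD_CD replicate 1, the library with the most reads, and 1 in WD_WD replicate 3, that with the fewest. WD_CD replicate 3 had 10, the most of any library. With 3 libraries per group, errors were wide. The number of members called for the offspring's diet with CD mothers was 1, beside 1599 of all genes tested. It was 2 with a pseudocount of 8 (beside 1832) or a mean value of at least 50 (1628). It was 0 with TMM scaling (1576), with only the groups compared (1208) or with edgeR (1452). With DESeq2 it was 3 (Cdkn1a, Ccnd3 and Rfc2, beside 2376), and with equal library totals 7, all lower (beside 4366). With WD mothers the 9, beside 2604 of all genes, became 14 (4 higher, 10 lower) with equal library totals, beside 4708. They became 4 with only the groups compared, beside 2268. For the mother's diet in CD offspring and for the interaction the 0 became 2 with DESeq2, beside 9 and 10 of all genes. Leaving out 1 library gave 0 to 1 members called for the mother's diet in CD offspring (1 without WD_CD replicate 2), beside 0 to 3 genes. For the offspring's diet it gave 0 to 3 members with CD mothers, beside 698 to 1714 of all genes. With WD mothers it gave 4 to 10 (5 without WD_CD replicate 3, 4 without WD_WD replicate 2), beside 1593 to 3335. With equal library totals 31 of the 55 members changed sign with CD mothers, Rfc2 (-0.21) and Pcna (-0.37) among them, and 21 with WD mothers. The S phase medians were then -0.48 and -0.75 and the mitosis medians -0.21 and -0.34. The share of all calls that were higher went from 63.0% to 6.67% and from 58.2% to 9.35%. Ung and Tpx2 were called with WD mothers in every alternative run. The cause of these changes was not tested.

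With the replicate block the members called were 0 and 0 for the mother's diet and 0 for the interaction, as without it. For the offspring's diet they were 1 and 9, also as without it, against 13.4% and 21.8% of all genes. Leaving out CD_WD replicate 1 and WD_CD replicate 3 together was an alternative chosen after seeing the data. It gave 1 (Cdkn1a) with CD mothers, against 12.6% of all genes, and 7 (5 higher, 2 lower) with WD mothers, against 25.5%.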
